A study of Mus musculus with 54 samples.

Results

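The 32 genes described here encode proteins of the adherens, tight and desmosomal junctions of epithelial cells, with Rab25 and Ap1m2, which sort proteins to the epithelial surface. They were taken by name from a table of 23477 genes, and all 32 were found in it. RNA was sequenced from 23 clones of 4T1, a mouse mammary carcinoma line, and from 4 specimens of 4T1 tumors, with 2 libraries, A and B, for each clone and specimen. Clones E and T are labelled intravasating, that is, able to enter blood vessels, and the other 21 clones are labelled non-intravasating. Each clone descends from 1 sorted 4T1 cell, so a clone is 1 clonal line. Intravasation had been scored while the clones were mixed, and the growth protocol gives a medium with serum and no treatment. The specimens are 2 orthotopic tumors, Tumor_1 and Tumor_2, meaning tumors in the organ of origin, and 2 lung metastases, Lung_1 and Lung_2. The labels give neither the strain or age of the mice, nor the clones that a specimen holds, nor whether host cells were removed from it.

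Epithelial cells are joined by 3 kinds of junction. In adherens junctions, cadherins such as E-cadherin (Cdh1) bind the neighbouring cell and are tied to actin by catenins. Tight junctions seal the space between cells with claudins, occludin and their relatives, held by scaffold proteins next to polarity proteins that set the apical side. Desmosomes bind cells through desmogleins and desmocollins, which plakophilins, plakoglobin (Jup) and desmoplakin (Dsp) link to keratin filaments. Carcinomas can lose part of this equipment during epithelial-mesenchymal transition, in which factors of the Snail, Zeb and Twist families repress junction genes.

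Libraries held between 8848811 and 31607741 reads. Levels are normalized counts, that is, reads scaled by the authors between libraries, given as the mean of libraries A and B. Differences are on the deposited log2 scale, which is compressed for low genes. The libraries of a clone or specimen are not said to come from separate cultures or pieces, so their spread may be technical. The A libraries of Lung_1 and Lung_2 stood apart, with reads on 20274 and 19864 genes against 14127 to 17296 in every other library. The keratins of simple epithelium were present in every clone: Krt8 lay between 3221 in clone G and 12880 in clone W.

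All 32 junction genes passed the filter on low values, which asked for 10 normalized counts or more in 2 or more libraries, and all 32 differed among the 23 clones. In the same moderated F-test in limma, at a Benjamini-Hochberg adjusted p under 0.05, 95.1% of the 13633 genes tested differed, so passing it does not set the junction genes apart. Their spread was wide: the median range from the lowest to the highest clone was 3.16 on the log2 scale, between 0.85 for Ctnnd1 and 6.45 for Cdh1, against 1.15 for all genes tested. In 17 of the 32 the range was over 3. The median SD between clones was 0.84 and the median SD between libraries of a clone 0.17.

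Clones ranked in much the same way for many of the genes. Averaged over the 32 genes in units of each gene's SD across clones, clones S and O stood lowest at -1.17 and -1.13, next was F at -0.45, and clones J, M, L and A stood highest at 0.74, 0.98, 1.08 and 1.27. Clone O held the lowest level of 13 genes, and clone A the highest of 13. The intravasating clones T and E ranked 5th and 9th from the lowest, at -0.37 and -0.28.

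**Figure D1:**
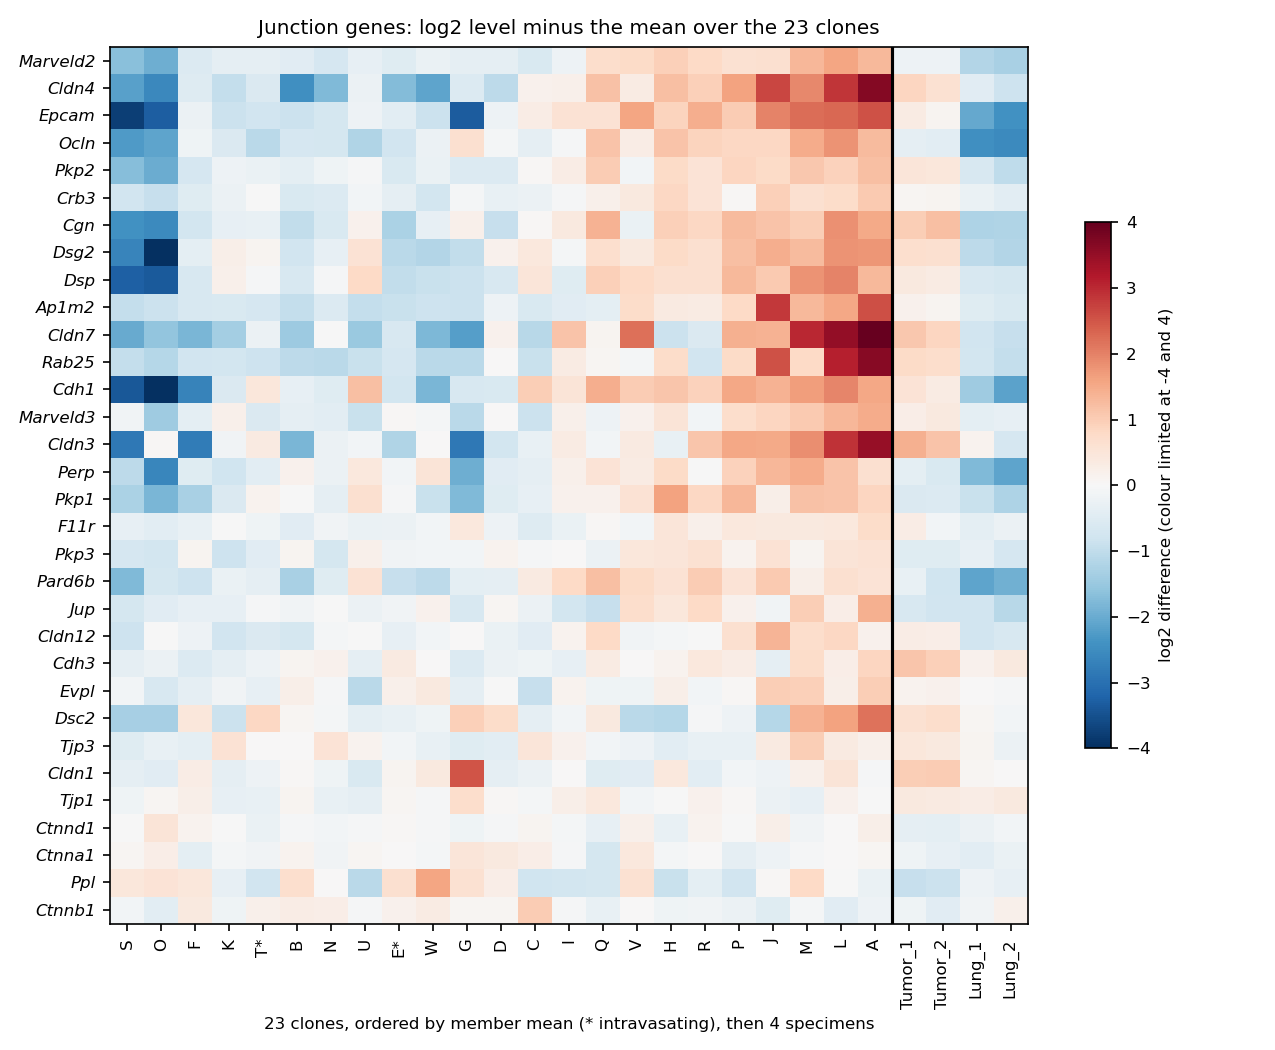
Log2 level of each of the 32 junction genes (rows) minus its mean over the 23 clones, for clones ordered by their mean over these genes and for the 4 specimens (columns). Most genes in the upper rows are low in clones S and O and high in J, M, L and A, while Ctnnb1, Ctnna1, Ctnnd1 and Tjp1 in the lower rows do not follow that order.

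Among the adherens junction genes, Cdh1, on chromosome 8 (106603351 to 106670246, plus strand, GRCm38), had its lowest level of 217 in clone O, a median of 8889 and its highest level of 24203 in clone L, a 112-fold span. Clone S had 529, clone F 917 and clone W 1678, and every other clone had at least 3848. The 2 libraries of a clone overlapped with those of its neighbour in rank for 11 of the 22 neighbouring pairs, and the lowest 4 clones (O, S, F and W) were each apart from the next. Epcam, an adhesion molecule of epithelial cells that binds claudins, had 151 in clone S, 228 in O and 229 in G, a median of 2446 and 16782 in clone A. The low group was not the same for the pair: clone G had 3930 of Cdh1 and clone F had 2364 of Epcam.

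Alpha-, beta- and p120-catenin spanned smaller ranges than Cdh1 and Epcam. Ctnnb1 (beta-catenin) had a median of 23891 and stood between 17997 in clone J and 33049 in clone F, apart from clone C with 51034. Ulk4, on the opposite strand, shares 759 of the 5192 exonic bases of Ctnnb1, and the strand setting of the counting is not given in the sources used here. Ctnna1 (alpha-catenin) ranged 2.26-fold, from 5069 in clone Q to 11460 in G. Ctnnd1 (p120-catenin, which stabilises cadherins at the membrane) ranged 1.81-fold, from 6488 in Q to 11765 in O, the clone with the least Cdh1. Gm28635, on the same strand, shares 4482 of the 7319 exonic bases of Ctnnd1 and is not among the genes measured. Jup (plakoglobin, shared by adherens junctions and desmosomes) ranged 5.42-fold, from 672 in Q to 3639 in A. Cdh3 (P-cadherin) was low throughout, with a median of 5.28 and a highest level of 33.9 in clone A. No read of it was found in clones F and G, where 3 reads would give 1.35. Per kilobase of exon, the median level was 4600 for Ctnnb1, 1940 for Cdh1, 1280 for Ctnna1, 1110 for Epcam, 1100 for Ctnnd1 and 1.2 for Cdh3.

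**Figure D2:**
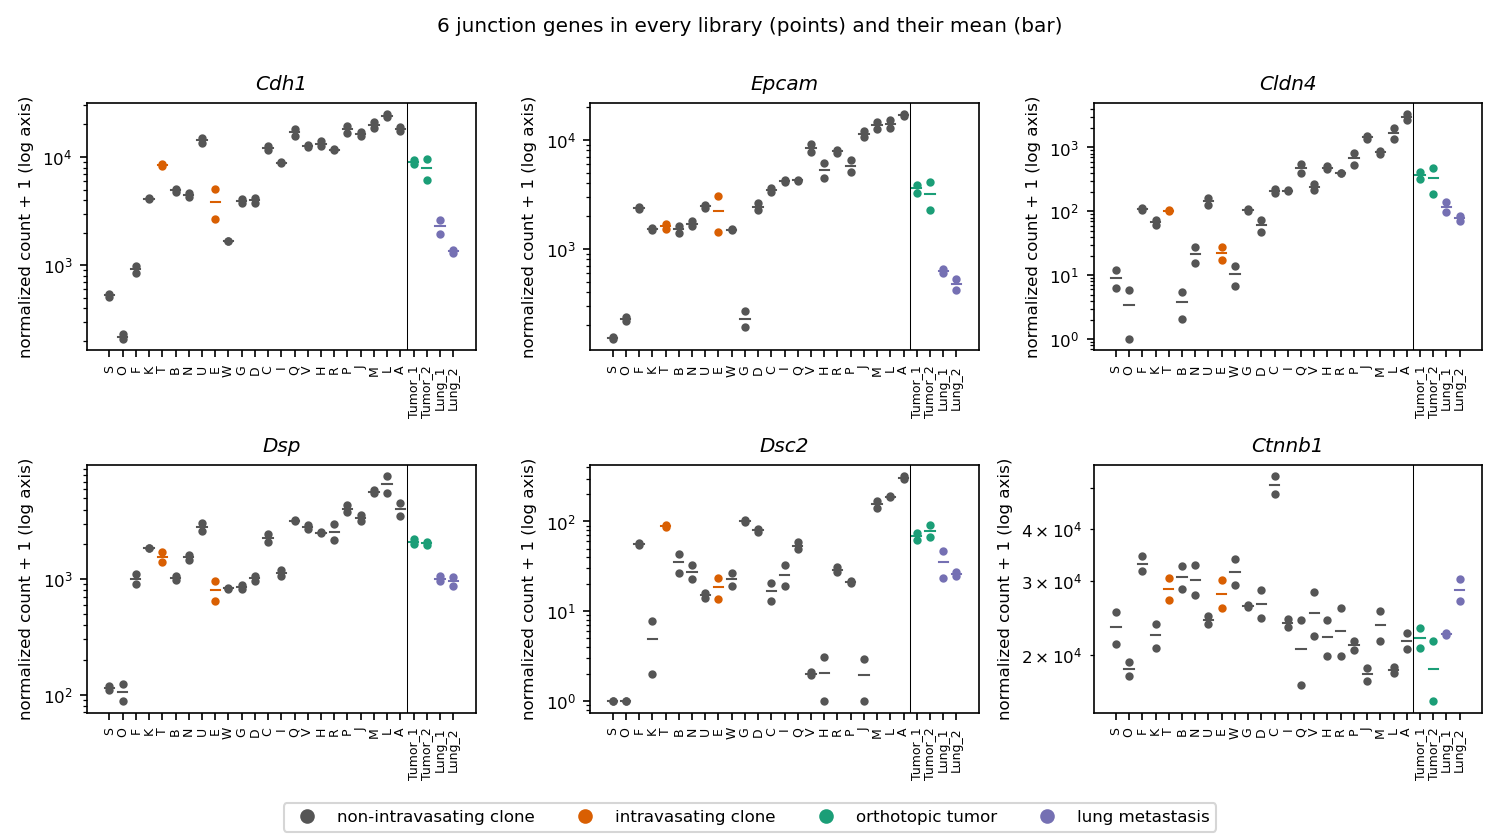
Normalized count plus 1 (log axis) of 6 junction genes in both libraries of each clone and specimen (points) with their mean (bars), clones in the order of their junction gene mean. Cdh1, Epcam, Cldn4 and Dsp climb from left to right with exceptions, Dsc2 is near 0 in clones V, H and J, and Ctnnb1 does not climb with them and is highest in clone C.

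Of the claudins, which form the seal itself, 3 spanned ranges close to that of Cdh1, namely Cldn7 (6.41 on the log2 scale), Cldn3 (6.37) and Cldn4 (6.27), while Cldn1 (3.12) and Cldn12 (2.17) lay below the median of the 32 genes. Cldn3, Cldn4 and Cldn7 all had their highest level in clone A, at 3587, 3010 and 3599, and medians of 236, 144 and 75.5. Cldn3 was at 2.95 in clone S, 3.12 in G and 3.99 in F. Cldn4 was at 2.42 in O and 2.81 in B. Cldn7 was at 2.27 in G and 5.58 in S. These low levels rest on 5 to 11 reads in both libraries together, and each claudin reached its low in a different set of clones. Clone O, for instance, kept 276 of Cldn3 while Cldn4 was at its lowest there. Cldn1 was under 10 in 17 of the 23 clones, with a median of 3.27, but reached 225 in clone G, the clone with the least Cldn7 and almost no Cldn3. The next highest clone, L, had 21.1 of Cldn1. Cldn12 ranged 4.81-fold, from 780 in S to 3750 in J.

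Occludin and its relatives span the membrane beside the claudins, and tricellulin (Marveld2) sits where 3 cells meet. Ocln had 49.1 in S, a median of 409 and 1666 in L, a 33.9-fold span. Marveld2 ranged 16.5-fold, from 122 in O to 2012 in L, and Marveld3 21.1-fold, from 23.9 in O to 505 in A. F11r, which encodes the adhesion molecule JAM-A, ranged 2.55-fold, from 561 in C to 1434 in A. The scaffolds differed among themselves. Tjp1 (ZO-1) ranged only 2.12-fold, from 3569 in U to 7575 in G, while cingulin (Cgn), which binds ZO-1, ranged 46-fold, from 40.8 in O to 1877 in L. Tjp3 (ZO-3) had a median of 7.46 and at most 55.5, in M. Of the polarity proteins, Pard6b ranged 9.01-fold, from 378 in S to 3410 in Q, and Crb3 had a median of 11.7, at most 72.5 in A, and no read in O, where 3 reads would give 1.27.

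Among the desmosomal genes, Dsp, the link to keratin, had 105 in O, 113 in S, a median of 1859 and 6696 in L, a 64-fold span. Dsg2, a desmoglein, had 5.53 in O, 66.2 in S, a median of 823 and 2608 in L. Dsc2, its desmocollin partner, followed another order. It had no read in O and S (3 reads would give 1.27 and 1.47) and only 1.06 in H, 0.976 in J and 1.03 in V, although these 3 clones had 1234, 2023 and 930 of Dsg2 and 2525, 3387 and 2815 of Dsp. Clones A, L and M had 305, 188 and 154 of Dsc2. Perp, a membrane protein of desmosomes, ranged 19.1-fold, from 441 in O to 8423 in M.

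Plakophilins tie the desmosomal cadherins to desmoplakin. Pkp1 ranged from 4.55 in O and 5.38 in G to 451 in H, with a median of 126. Pkp2 ranged 15.9-fold, from 67.8 in O to 1081 in A, and Pkp3 only 3.06-fold, from 299 in K to 916 in R. Ppl and Evpl are plakins of the cornified envelope. Ppl (periplakin) was highest in clone W at 5705 and lowest in U at 855, and Evpl (envoplakin) ranged from 14.4 in U to 201 in A. Rab25, a GTPase of apical recycling, had a median of 10.6 and was under 10 in 11 clones, but reached 1129 in A, 766 in L and 492 in J. Ap1m2, the epithelial subunit of the AP-1 sorting adaptor, had a median of 4 and reached 391 in J and 329 in A. No read of Ap1m2 was found in clones B, S and U, where 3 reads would give 1.37, 1.47 and 1.62.

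Most of the genes moved together across the clones. The correlation of each gene with the mean of the other 31 had a median r of 0.76 and was above 0.5 in 24 of the 32. It was highest for Marveld2 (r = 0.95, rho = 0.87, and r = 0.95 without the 2 clones farthest from the median), Cldn4 (0.91, 0.88 and 0.86) and Ocln (0.90, 0.86 and 0.89). It was negative for Ctnnb1 (-0.37), Ppl (-0.22), Ctnna1 (-0.20), Ctnnd1 (-0.10) and Tjp1 (-0.05), and 0.05 for Cldn1. These are descriptions over 23 clones, which share a parent line and a normalisation, and genes of a clone share its libraries. Of all 13633 genes, 12.3% had r above 0.5 with the mean of the 32 and 13.0% had r below -0.5.

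The closest pairs lay both within a junction type and across types. Within a type, Dsp and Dsg2 had r = 0.96, Cldn4 and Crb3 0.93, and the sorting genes Rab25 and Ap1m2 0.91. Across types, Cgn and Pkp2 had 0.96, and Cdh1 and Dsp 0.93. Pard6b and Ppl were farthest apart, at -0.61. Over all 496 pairs the median was 0.50, with 246 above 0.5 and 124 below 0. Neighbours on a chromosome did not all follow each other: Ocln and Marveld2 lie 43.2 kb apart on chromosome 13 (r = 0.93), Cldn3 and Cldn4 39.3 kb apart on chromosome 5 (0.75), Cdh1 and Cdh3 46.1 kb apart on chromosome 8 (0.49), and Dsg2 and Dsc2 498.5 kb apart on chromosome 18 (0.46).

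**Figure D3:**
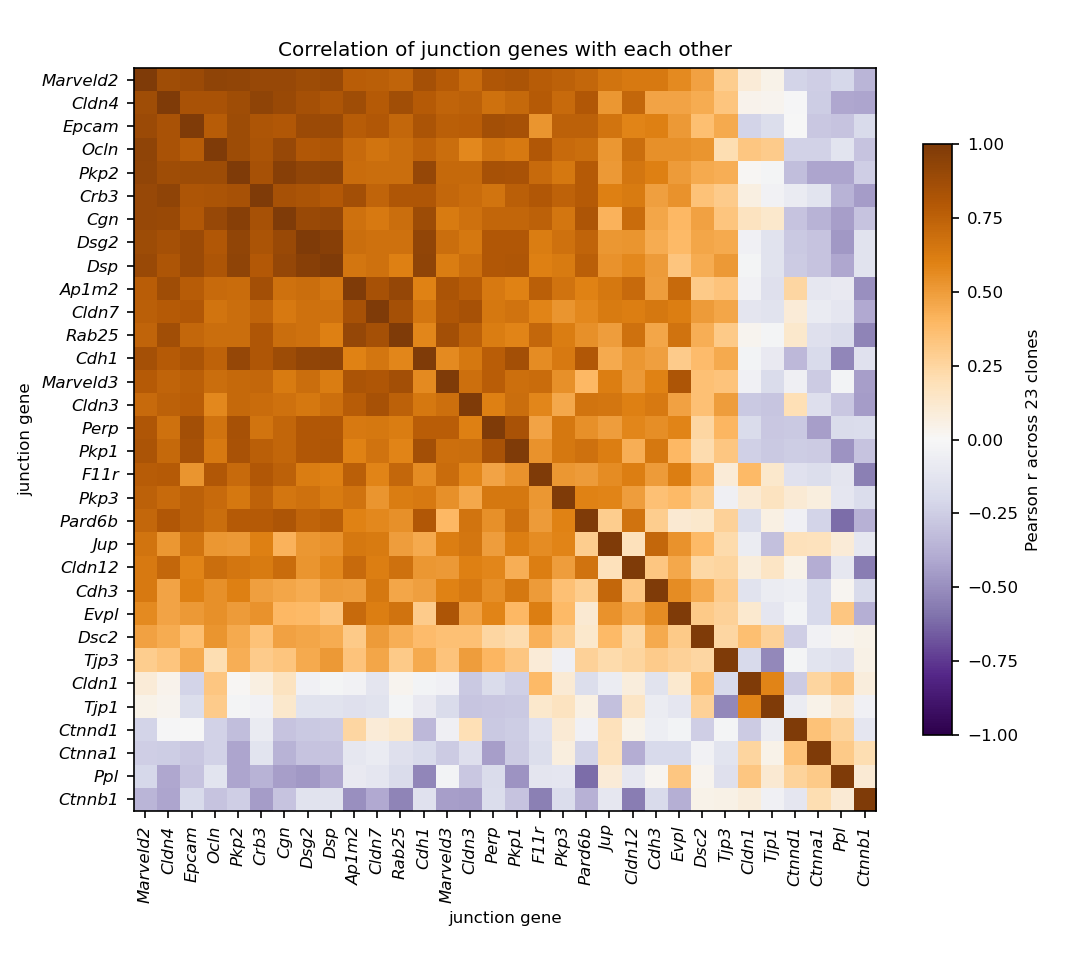
Pearson r between the levels of each pair of the 32 junction genes across 23 clones, genes in the order of their r with the mean of the others. Genes from Marveld2 to Pard6b form a block of positive r, and Cldn1, Tjp1, Ctnnd1, Ctnna1, Ppl and Ctnnb1 lie outside it.

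Other genes of the pathway were described from lists of their own, each gene by its r with the mean of the 32 junction genes. Of 14 transcription and splicing factors that maintain epithelial genes, 10 had r above 0.5, led by the splicing factors Esrp2 (r = 0.86, rho = 0.87, 0.83 without the 2 farthest clones) and Esrp1 (0.84, 0.81 and 0.78), Ovol2 (0.83, 0.79 and 0.74) and Grhl2 (0.76, 0.77 and 0.72). Gata3 went the other way (-0.67, -0.74 and -0.53). Of 10 repressors of epithelial genes, 4 had r below -0.5: Zeb2 (-0.91, -0.83 and -0.86), Twist1 (-0.83, -0.69 and -0.72), Prrx1 (-0.61, -0.58 and -0.49) and Tcf4 (-0.56, -0.56 and -0.50). Zeb2 was highest in clone O at 3234 and lowest in J at 521. Zeb1 had r = -0.34 with at most 60.1, in clone T, and Snai3 had 0.77. No read of Cdh2 (N-cadherin) was found in any of the 46 clone libraries, where 3 reads over all of them would give 0.065, so clones with little Cdh1 held no detectable Cdh2.

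Further junction genes followed the 32 less closely. Of 26 other tight junction and polarity genes, 6 had r above 0.5, with Lsr, the tricellular receptor that recruits tricellulin (0.92), and Llgl2 (0.88) highest and Marveld1 lowest (-0.51). Of 14 other adherens junction genes, 5 did, with Mllt4 (afadin) at 0.79 and the liver-intestine cadherin Cdh17 lowest at -0.42. Of 15 other epithelial genes 10 did, with the membrane protease St14 at 0.89 and Spint1, its inhibitor, lowest at 0.16. Among all genes outside the list, the highest r were those of Osbpl3 (0.94), Entpd3 (0.92), Lsr, Atp11a (0.91), Mboat1 (0.91), Atg9b (0.91), Erbb3 (0.90) and Rdh10 (0.90). The lowest were those of Srxn1 (-0.92), Zeb2, Bloc1s6 (-0.90), Ak5 (-0.88), Fmnl2, Cobll1, Fth1 and Il6ra (-0.87 each).

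**Figure D4:**
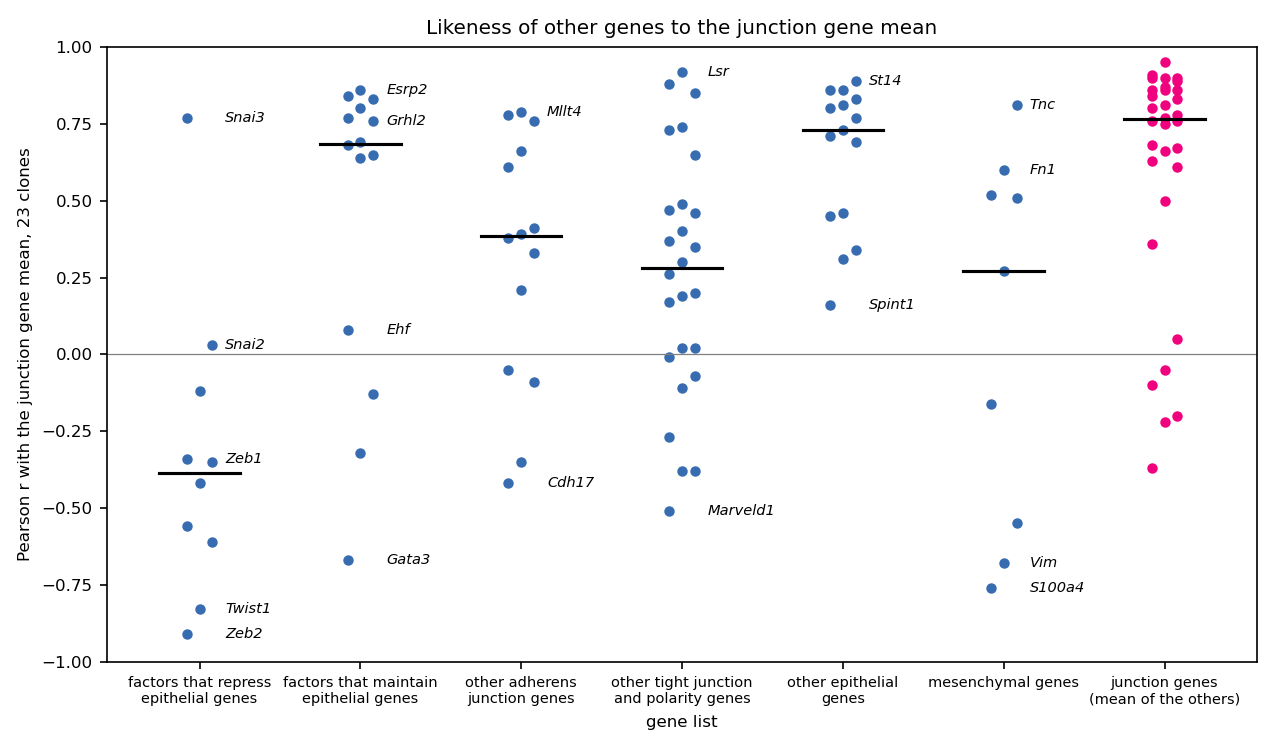
Pearson r across 23 clones between each gene of 6 lists and the mean of the 32 junction genes (points, with the median of each list as a bar). On the right each junction gene is set against the mean of the other 31. Zeb2 and Twist1 lie lowest among the repressors, and 10 of the 14 maintaining factors lie above 0.5.

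Because many of the genes moved together, and opposite to Zeb2, their promoters are shown with the E-box CAGGTG or its reverse complement CACCTG, the sequence that Snail and Zeb factors are known to bind. RefSeq promoters (GRCm38.p6) were at hand for 20 of the 32 genes, with 29 start sites, and the 250 bases before each start were searched on both strands. A match was found in 12 of the 29 windows (41.4%) against 5657 of the 32851 windows of the whole table (17.2%). Windows of 1 gene overlap, and the wider pattern CANNTG, which contains both, was in 58.6% against 66.2%. The 10 genes with a match had a median r of 0.85 with the mean of the others, between 0.36 and 0.91. The 10 without had 0.66, between -0.37 and 0.95, so the ranges overlap. Cdh1, Dsg2, Pkp2 and Perp were among the genes without a promoter at hand. The windows are printed 5′ to 3′ on the gene's strand, with matches in capitals, for 4 genes with matches and, for contrast, for Cldn3, which varied as widely, and Ctnnb1, which did not follow the other genes. Ap1m2 has 4 matches, whose first bases lie 81, 51, 21 and 9 bases before the start, Epcam has 2 (187 and 19), Pard6b 2 (141 and 86), Cldn4 1 (14), and Cldn3 and Ctnnb1 have none in this window.
Ap1m2, chr9:21312334-21312583, minus strand: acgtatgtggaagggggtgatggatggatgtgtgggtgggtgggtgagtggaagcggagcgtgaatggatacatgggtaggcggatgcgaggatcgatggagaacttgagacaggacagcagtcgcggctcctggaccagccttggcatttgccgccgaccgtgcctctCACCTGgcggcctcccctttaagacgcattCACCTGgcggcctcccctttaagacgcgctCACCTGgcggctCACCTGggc
Epcam, chr17:87635729-87635978, plus strand: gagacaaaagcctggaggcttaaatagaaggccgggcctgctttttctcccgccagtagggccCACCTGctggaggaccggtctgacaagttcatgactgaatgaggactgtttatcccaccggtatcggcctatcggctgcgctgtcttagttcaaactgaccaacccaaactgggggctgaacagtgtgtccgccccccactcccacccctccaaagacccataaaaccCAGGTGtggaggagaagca
Pard6b, chr2:168080754-168081003, plus strand: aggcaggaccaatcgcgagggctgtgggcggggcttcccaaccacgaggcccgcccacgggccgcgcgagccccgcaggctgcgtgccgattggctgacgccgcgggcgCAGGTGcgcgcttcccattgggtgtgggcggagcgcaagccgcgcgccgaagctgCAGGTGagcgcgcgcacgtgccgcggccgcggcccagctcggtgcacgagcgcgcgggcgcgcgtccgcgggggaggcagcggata
Cldn4, chr5:134946935-134947184, minus strand: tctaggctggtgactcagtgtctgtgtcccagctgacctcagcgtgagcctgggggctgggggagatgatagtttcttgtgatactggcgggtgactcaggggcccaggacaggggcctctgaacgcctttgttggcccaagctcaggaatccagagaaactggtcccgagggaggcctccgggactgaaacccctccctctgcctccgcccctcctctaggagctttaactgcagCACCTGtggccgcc
Cldn3, chr5:134985964-134986213, plus strand: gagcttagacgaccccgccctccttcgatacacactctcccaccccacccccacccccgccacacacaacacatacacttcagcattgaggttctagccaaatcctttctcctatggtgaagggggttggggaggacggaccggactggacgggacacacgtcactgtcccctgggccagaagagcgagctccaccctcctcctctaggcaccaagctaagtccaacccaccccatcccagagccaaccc
Ctnnb1, chr9:120933150-120933399, plus strand: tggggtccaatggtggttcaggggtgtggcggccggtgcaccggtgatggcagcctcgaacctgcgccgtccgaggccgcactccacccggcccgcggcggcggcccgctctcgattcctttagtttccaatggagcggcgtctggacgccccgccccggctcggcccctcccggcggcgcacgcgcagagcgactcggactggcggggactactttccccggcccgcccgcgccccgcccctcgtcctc
Zeb2 was picked out by its r of -0.91 with the mean of the 32 genes. A gene that follows this mean thus tends to a negative r with Zeb2, whatever its promoter holds. Neither binding nor repression by Zeb2 was tested. The r with Zeb2 across the 23 clones is given for all 20 genes, with rho in brackets. With a match it was -0.92 (-0.77) for Ap1m2, -0.83 (-0.86) for Epcam, -0.68 (-0.71) for Pard6b and -0.90 (-0.85) for Cldn4. Also with a match, it was -0.88 (-0.76) for Rab25, -0.87 (-0.83) for Crb3 and -0.79 (-0.74) for Cldn7. It was -0.78 (-0.70) for F11r, -0.76 (-0.74) for Ocln and -0.37 (-0.33) for Tjp3, which hold a match too. Without a match it was -0.80 (-0.78) for Cldn3, -0.86 (-0.87) for Marveld2, -0.82 (-0.84) for Cgn, -0.79 (-0.75) for Cldn12 and -0.78 (-0.85) for Dsp. Also without a match, it was -0.58 (-0.58) for Jup, -0.05 (-0.04) for Ctnnd1 and 0.06 (-0.14) for Cldn1. It was 0.13 (0.09) for Tjp1 and 0.53 (0.53) for Ctnnb1, which hold none either.

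The comparison of the intravasating clones E and T with the other 21 asked whether junction genes differ with the capacity to enter vessels. Cdh1 was at 3848 in E and 8407 in T, and between 217 and 24203 with a median of 11735 in the other clones. Epcam was at 2234 and 1606 against a median of 3474, Ocln at 233 and 177 against 423, and Cldn4 at 21.4 and 102 against 208. Ctnnb1 was at 28006 and 28813 against 23575. Both clones thus lay inside the range of the others for these genes: only 3 of the 21 had less Ocln than E or less than T. For 16 of the 32 genes both E and T were below the median of the others, and for 3 both were above, where 24.6% and 26.1% of all genes tested did so.

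None of the 32 differences passed the threshold in limma on 1 value per clone (adjusted p = 1 for each), and none had an unadjusted p under 0.05. Over all 13633 genes 0% were called higher and 0% lower, with 109 at an unadjusted p under 0.05. Of the 32 differences, 28 were below 0, with a median of -0.29 on the log2 scale, against 49.1% below 0 and a median of 0 over all genes. Those farthest from 0 were Cldn4 at -1.26 ± 1.23 (SE), Ocln at -1.02 ± 0.75, and Ap1m2 and Cgn at -0.85 ± 0.78 and -0.85 ± 0.81. Standard errors of this size leave wide intervals, so this comparison of 2 clones with 21 does not show that the levels are alike.

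E and T themselves differed in junction genes. Cdh1 was at 2650 and 5045 in the libraries of E against 8272 and 8542 in T, Cldn3 at 136 and 44.8 against 416 and 295, and Ppl at 2741 and 3201 against 963 and 1172. For each of these 3 genes the libraries of the clones did not overlap. In limma over the libraries of all clones, the error was the spread between libraries of a clone, which may be technical. Each side is a single clonal line, so the p-values may not cover the spread between separate cultures. Of the 32 genes 15 passed: 7 were higher in E (15.3% of all genes were) and 8 lower (13.4%). The lower ones were the cadherins Cdh1 (-1.19 ± 0.15, adjusted p = 4.42e-07), Dsg2 (-1.19 ± 0.17) and Dsc2 (-1.13 ± 0.15), the claudins Cldn3 (-1.57 ± 0.24) and Cldn4 (-1.17 ± 0.19), and Cgn, Dsp and Pard6b. The higher ones were Ppl (1.43 ± 0.15, adjusted p = 4.48e-09), Marveld3 (0.62 ± 0.17), Cdh3, Evpl, Tjp1, Ctnnd1 and Pkp3. The libraries of E stood apart from each other for some of these genes, with 209 and 409 of Dsg2. Without library B of clone E the higher count fell to 3 with 9 lower, and without library B of clone T to 4 with 8 lower, and centring each library on its median lost Ctnnd1 (adjusted p = 0.0582).

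Orthotopic tumors had junction gene levels within those of the clones for most genes. Cdh1 was at 9034 and 7914, Epcam at 3574 and 3173, and Dsp at 2108 and 2047. Cdh3 alone was above every clone in both tumors, at 47.6 and 40.4, although library B of Tumor_2 had only 24.5. Ctnnd1 alone had means below those of every clone, at 6353 and 6299 against 6488 in clone Q. Its libraries overlapped, with 6628 and 6570 in the tumor libraries A against 6212 in library A of Q. In bulk tissue, fewer cells of a type and less RNA per cell cannot be told apart. In limma on 1 value per clone or specimen, Cdh3 was higher (1.02 ± 0.26, adjusted p = 0.0143), and none of the 32 genes was lower, where 5.71% of the 14231 genes tested were higher and 1.75% lower. That call was lost without Tumor_1 (adjusted p = 0.197), without Tumor_2 (0.272), with only libraries B (0.0702) and on log2(normalized count + 1) (0.0658). Ctnnd1 did not pass (-0.37 ± 0.15, adjusted p = 0.125).

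Lung metastases lay at the low end of the clones for several junction genes. Ocln was at 38.5 and 32.6, and Pard6b at 283 and 334, both below the means of all 23 clones. Single libraries overlapped with those of clone S. Library B of Lung_1 had 43.8 of Ocln against 37.9 in library B of S. Library B of Lung_2 had 361 of Pard6b against 345 in library B of S. Perp was at 844 and 649, below 21 of the 23 clones. Ocln (-2.49 ± 0.73, adjusted p = 0.0161), Pard6b (-2.01 ± 0.56, adjusted p = 0.0115) and Perp (-1.93 ± 0.65, adjusted p = 0.0379) fell relative to the clones, and none rose, where 12.4% of all genes were higher and 6.35% lower. With 1 metastasis left out none of the 3 passed: without Lung_1 the adjusted p was 0.159, 0.168 and 0.206, and without Lung_2 0.200, 0.137 and 0.334. With only libraries B the call of Perp was lost (adjusted p = 0.0709), leaving 2, and with only libraries A 4 genes passed. Cdh1 was at 2279 and 1341, and Epcam at 631 and 473. For each of them 3 clones were lower than both metastases, and neither passed the threshold (-1.79 ± 1.14, adjusted p = 0.290, and -2.23 ± 1.16, adjusted p = 0.185).

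Compared with orthotopic tumors, lung metastases had less RNA of most junction genes, across all 3 kinds of junction. Cdh1 was at 9369, 8698, 9669 and 6160 in the tumor libraries and at 1946, 2612, 1393 and 1288 in the lung libraries. Epcam was at 3267, 3880, 4077 and 2268 against 604, 658, 422 and 524. Ocln was at 319, 331, 356 and 271 against 33.2, 43.8, 31.5 and 33.8. No lung library reached the lowest tumor library for these 3 genes. The levels in tumors were on average 4.68 times those in metastases for Cdh1, 6.11 times for Epcam, 8.97 times for Ocln, 6.39 times for Cgn and 12 times for Rab25.

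In limma on 1 value per specimen, 23 of the 32 genes were lower in metastases (14.8% of the 13698 genes tested were) and 1 was higher (16.7%). The median of the 32 differences was -0.85 and of all genes 0.02. On the deposited scale, which compresses low genes, the differences farthest from 0 were those of Epcam (-2.46 ± 0.15, adjusted p = 2.65e-05), Cgn (-2.31 ± 0.12, adjusted p = 1.64e-05), Cdh1 (-2.22 ± 0.21, adjusted p = 0.000261) and Ocln (-2.10 ± 0.12, adjusted p = 2.23e-05). On log2(normalized count + 1) they were those of Rab25 (-3.53), Ocln (-3.14), Cgn (-2.65) and Epcam (-2.59), with Cdh1 at -2.26. Cdh3 (-0.74 ± 0.14) fell with Cdh1. All 5 claudins fell, among them Cldn7 (-1.81 ± 0.13) and Cldn1 (-0.95 ± 0.12). The differences of Cldn7 and Cldn1 on log2(normalized count + 1) were -2.53 and -2.56. The libraries of Tumor_2 were the least alike of all pairs (r = 0.9584). They had 502 and 171 of Cldn7 and 1108 and 379 of Cldn3, but 615 and 612 of Pkp2. The highest lung library had 334 of Cldn3. The SE rests on the mean of each specimen, so it does not show this spread. Marveld2 (-1.04 ± 0.11) and Marveld3 (-0.69 ± 0.12) fell as well. Of the tight junction scaffolds and polarity genes, Pard6b (-1.46 ± 0.16), Tjp3 (-0.48 ± 0.15) and Crb3 (-0.44 ± 0.13) fell with Cgn. In desmosomes, Dsg2 (-1.76 ± 0.11), Perp (-1.43 ± 0.14), Pkp2 (-1.30 ± 0.14), Dsp (-1.03 ± 0.11), Dsc2 (-0.67 ± 0.13) and Pkp1 (-0.50 ± 0.14) fell. Rab25 (-1.58 ± 0.13) and Ap1m2 (-0.69 ± 0.13) fell too.

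The genes that did not pass were the catenins and some scaffolds and plaque proteins. Ctnnb1 was at 21997 and 18535 in tumors and 22434 and 28611 in metastases (0.34 ± 0.19, adjusted p = 0.197). Ctnna1 (-0.09 ± 0.13), Ctnnd1 (0.19 ± 0.12), Jup (-0.25 ± 0.13), Tjp1 (-0.04 ± 0.12), Pkp3 (-0.02 ± 0.13), Evpl (-0.17 ± 0.12) and F11r (-0.42 ± 0.15) did not pass either. Ppl rose (0.63 ± 0.11, adjusted p = 0.00342), from 953 and 1048 to 1609 and 1487, although library B of Tumor_2, at 1363, lay near library B of Lung_2, at 1414. With only libraries A, which include the 2 lung libraries that stood apart, 22 of the 32 genes passed. With only libraries B 8 did: Cdh1, Epcam, Ocln, Cgn, Pard6b, Dsg2, Pkp2 and Rab25. The libraries of Tumor_2 were unlike each other too, with 2922 of Perp in A and 1297 in B. The part of these libraries in the counts was not tested. In a fit that also holds the 23 clones and takes its spread from them, none passed (adjusted p between 0.423 for Cgn and 0.868 for Pkp1 among the 24).

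**Figure D5:**
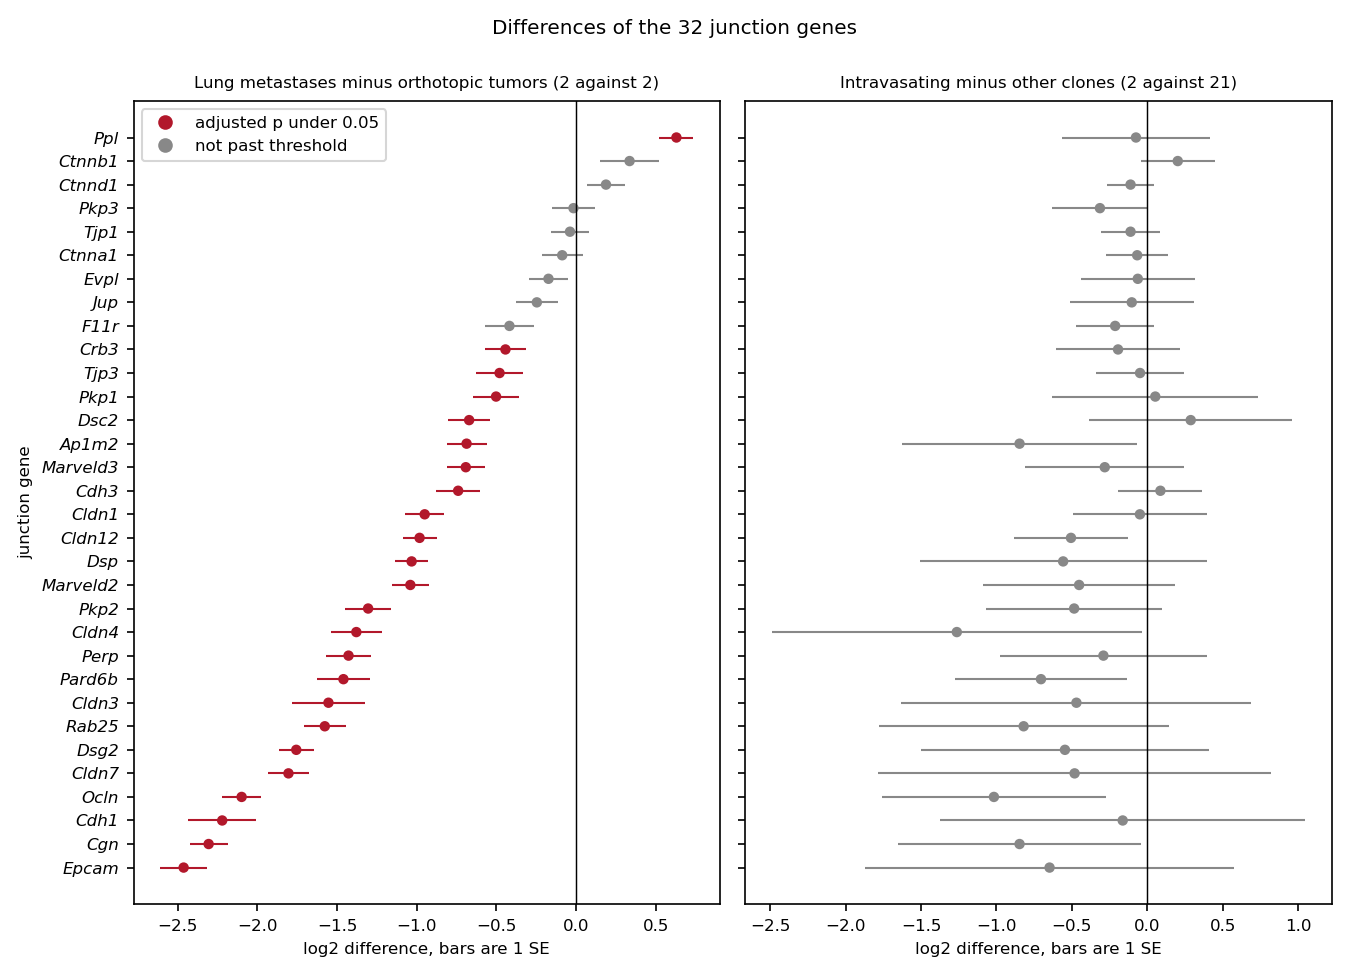
Log2 difference (points) with 1 SE (bars) of each junction gene between lung metastases and orthotopic tumors (left, 2 against 2 specimens) and between intravasating and other clones (right, 2 against 21 clones). On the left 23 genes lie to the left of 0 and Ppl to the right past the threshold (red), and on the right none does.

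Regulators and other junction genes were compared between the same specimens, where 14.8% of all genes tested were lower and 16.7% higher. Of the maintaining factors 9 of 14 fell in metastases and 2 rose: Esrp1 fell by 3.60 on the log2 scale (SE 0.21), from 935 and 1217 to 23.9 and 59.1, Grhl2 by 1.38 and Esrp2 by 1.36, while Klf4 (1.24) and Gata3 (0.49) rose. Of the 8 repressors tested 4 rose, namely Foxc2 (1.21), Tcf4 (0.94), Zeb2 (0.44) and Twist1 (0.36), and none fell. Of 15 other adherens junction genes 8 fell and Ctnnal1 rose (1.19), and of 26 other tight junction and polarity genes 6 fell and Cldn2 rose (0.78).

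Markers of host cells moved with part of this comparison. Summed levels of 7 fibroblast markers were 1624 and 4194 in metastases against 764 and 673 in tumors and 118 to 1801 in clones, and those of 10 leukocyte markers 316 and 696 against 404 and 349 and 63.9 to 1422. Those of 8 endothelial markers were 121 and 136 against 62.3 and 78.2. Of these 3 lists, the members that passed in metastases against tumors were Pdgfra, S100a8 and Tie1, each higher (16.7% of all genes tested were). No list was at 0 in the metastases. Against the clones, 5 of 6 fibroblast, 3 of 8 leukocyte and 2 of 4 endothelial markers tested were higher in tumors, and 6, 3 and 4 in metastases. Over all genes tested, 5.71% were higher in tumors and 12.4% in metastases. Their part in the results on specimens was not tested. Lung epithelium, which makes junction proteins of its own, had 12 markers that summed to 295 and 246 in metastases, below 459 and 456 in tumors. Its defining genes Sftpc and Nkx2-1 were at 1.72 and 4.54 and at 1.80 and 0.414 in the metastases. In the cultured clones the 12 markers summed to 292 to 928, so the sum does not measure lung epithelium alone. Of the 12, 3 had no read in the tumor libraries and 0 had none in the lung libraries. The keratins Krt8 and Krt18, which 4T1 cells express, were not lower in metastases, at 7542 and 5762 against 5026 and 4678 for Krt8 (0.46 ± 0.15, adjusted p = 0.0504), and at 10947 and 7460 against 8021 and 7173 for Krt18 (0.28 ± 0.19, adjusted p = 0.288).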

How the data were processed

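RNA was measured in 54 libraries of 23 clones and 4 specimens. Per the labels' protocols, 100 ng of total RNA was amplified with a NuGEN kit and read in 76 bases, and Bowtie2, HTSeq and DESeq with build mm10 were used per the submitters' processing notes, their versions not given in the sources used here. The authors deposited log2 values after variance stabilisation, read as such from the values, in which a gene without reads is at 5.03. Inverting the curve gave normalized counts and whole reads, within 0.01, for 100% of values. Of 23481 rows, 4 with a repeated symbol were left out. Columns without a sample numbered 0. Tests ran in R 4.3.3 with limma 3.58.1 on the log2 values, two-sided, with a trend, for genes that reached 10 normalized counts in 2 or more libraries, Benjamini-Hochberg adjusted over all genes tested, threshold 0.05. They were tested on simulated data. The spread between clones or specimens (1 mean value each) is the error, except among clones and for E against T, where libraries are. Floors are 3 reads and cover counting error only. The paired libraries A and B were identical in 0 cases. Their chi-square per gene lay between 5.01 in clone I and 139.41 in Tumor_2. The members, lists and tests were chosen with earlier results of these data known. The design had assumed values needing log2(value + 1), so that became an alternative. Named were all 32 genes, other listed genes past a threshold or at the ends of their list, and the 8 highest and 8 lowest genes by r. Alternatives were other scales, filters, centring, no trend, library A or B only, a block and leaving out each library or specimen. Gene positions are from GENCODE (GRCm38, the build of mm10).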

Additional observations from a re-analysis of the deposited data

How the results depend on the processing

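No junction gene call changed direction under any alternative tried. The number of junction genes that differed among clones stayed at 32 under all 5 alternatives, and the number between intravasating and other clones at 0 under all 8. Between clones E and T it was 14 or 15 under other scales, filters and centring and 12 to 17 with 1 library left out. The 1 call between orthotopic tumors and clones (Cdh3) became 0 on log2(normalized count + 1), 0 with only libraries B, and 0 with either tumor left out. The 3 calls between lung metastases and clones became 0 with either metastasis left out. The 24 calls between metastases and tumors became 8 with only libraries B, 0 in the fit of all 27 clones and specimens, and 16 to 25 with 1 specimen left out, where the lone specimen is assumed to vary like the others. The median r of 0.76 became 0.77 with only libraries B and 0.72 without clones S and O. The cause of these changes was not tested. Over 253 pairs of clones the A minus B differences had a median r of 0.08, between -0.50 and 0.64, with 113 above 0.1. These values do not settle whether the libraries' letters pair the clones. With the letter as a replicate block the counts were 32 among clones and 15 for E against T. Over all genes, 13062 then passed among clones, against 12967 without the block, and 4207 for E against T, against 3919. Genes under 10, such as Cdh3, Cldn1, Tjp3 and Ap1m2 in most clones, rest on few reads, which limits their folds.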

Other observations

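Clone G, singled out after its values were seen, differed from the other clones in genes of cell contact beyond the junction list. Ehf, an ETS factor of epithelial cells, was at 3926 and 3241 in its libraries, while clone F, the next highest, had 96.9 and the median clone 1.14. The nectin family members Pvrl2 and Pvr were at 1519 and 2608 in G, against 928 in A and 1430 in Q as the next highest, and against medians of 323 and 789. The keratin Krt8 was lowest in G, at 3221, as was Krt18 at 5217. The sum of 10 leukocyte markers was highest in G, at 1422, of which S100a8 made up 855 and Cd68 488, while the pan-leukocyte gene Ptprc was at 0.464. This is 1 clone with 2 libraries, and no test was made of it.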
